A study of Komagataella pastoris with 60 samples.

Results

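The 12 libraries described here are those of the *rpl9a*∆ strain of *Pichia pastoris* GS115 in methanol medium, out of 60 libraries in the series. They were chosen by their genotype label alone and comprise mRNA and RNC-mRNA (mRNA attached to ribosome–nascent chain complexes) at 24, 48 and 72 h, with 2 replicates of each. The comparisons were 48 h against 24 h and 72 h against 24 h within *rpl9a*∆, each assay on its own. The same steps in the wild-type strain (wt) and, in part, in *rpl38*∆ served to show where *rpl9a*∆ differed. Every strain carries the gene of a secreted phytase (Phy) behind a methanol-induced promoter, and every culture was grown in methanol medium, so no library is free of Phy or of methanol. The methods describe biological replicates, but whether the replicates of a strain were separate clones was not stated. The p-values rest on a spread between replicates that was estimated over all strains and times of a fit, unless fewer libraries are named. They do not measure the spread of the *rpl9a*∆ pairs on their own, which was wider in some groups.

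A ribosome is built from a large and a small subunit, each holding rRNA and a set of ribosomal proteins (RPs). Budding yeasts make RP mRNAs at high levels during fast growth and lower them together when growth slows or nutrients run short. For some RPs the genome holds a pair of paralogs. *RPL9A* and *RPL9B* are such a pair, so the *rpl9a*∆ strain can make the Rpl9 protein of the large subunit only from *RPL9B*. In methanol-grown *P. pastoris*, the promoters of methanol use are among the strongest known, and a secreted product such as Phy passes through the endoplasmic reticulum, where chaperones help it fold.

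The *rpl9a*∆ mRNA libraries held 3984747 to 8990055 reads on host genes, and the RNC-mRNA libraries 2288169 to 7433696. *RPL9A* (Pipas_chr1-1_0236) had 10 and 4 reads at 24 h, 5 and 7 at 48 h, and 7 and 3 at 72 h in *rpl9a*∆ mRNA, and no mRNA library of another strain had fewer than 165. In RNC-mRNA it had 11 and 31, 4 and 2, and 12 and 12 reads at the same times, and at least 444 in every library of the other strains. The deletion label held in all 12 libraries. The tests covered 5229 genes in mRNA and 5210 in RNC-mRNA, those with over 10 reads in 2 or more libraries, and all 86 RP genes were among them. With aligner and counter not given in the sources used here, how reads common to paralogs were divided is unknown.

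The replicates of *rpl9a*∆ disagreed in 3 of its 6 groups. The measure used was the SD over genes of the log2 difference between the replicates. In mRNA it was 0.302 at 24 h, 0.696 at 48 h and 0.259 at 72 h, against 0.146 to 0.273 in the groups of the other strains. At 48 h, 705 genes (13.5%) lay at least 2-fold apart, against 60 (1.15%) at 24 h. Among the 15 mRNA groups of strain and time, *rpl9a*∆ at 48 h had the widest spread. In RNC-mRNA the SD was 0.423 at 24 h, 0.729 at 48 h and 1.07 at 72 h, against 0.253 to 0.573 in the other strains. At 72 h, 1516 genes (29.1%) lay at least 2-fold apart, and at 48 h 770 (14.8%). These were the widest and the second widest of the 15 RNC-mRNA groups. The counts of these 3 pairs differed far beyond sampling noise, with chi-square values per degree of freedom of 206 in mRNA at 48 h, and of 100 and 439 in RNC-mRNA at 48 and 72 h. Every group exceeded sampling noise. In the other strains the values were 2.38 to 10.3 in mRNA and 2.86 to 23.6 in RNC-mRNA, apart from 122 in *rpl38*∆ RNC-mRNA at 72 h.

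**Figure D1:**
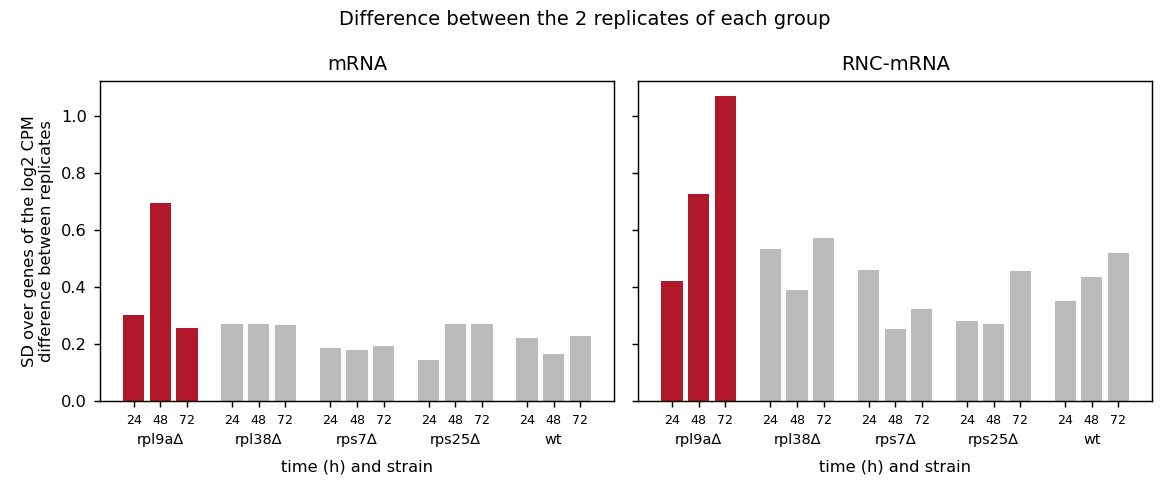
SD over genes of the log2 CPM difference between the 2 replicates of each group, by time (h) and strain, in mRNA (left) and RNC-mRNA (right). The *rpl9a*∆ bars (red) reach 0.696 in mRNA at 48 h and 1.07 in RNC-mRNA at 72 h, while no bar of another strain (grey) is above 0.573.

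To see in which direction these replicates differed, each library was placed along the mRNA difference between 72 and 24 h in *rpl9a*∆, over 5200 genes. The 24 h mean of its own strain and assay was at 0. A place of 1 is a shift from that mean as large, in this direction, as that of the *rpl9a*∆ mRNA at 72 h. For RNC-mRNA and other strains it is thus no measure of closeness to the *rpl9a*∆ mRNA of 72 h. The scale was built from the *rpl9a*∆ mRNA at 24 and 72 h, so the places of those libraries follow from its making. At 48 h the mRNA of replicate 1 lay at 0.268 and that of replicate 2 at 0.617. The RNC-mRNA at 48 h gave nearly the same places, 0.264 in replicate 1 and 0.586 in replicate 2. Replicate 2 was thus the further advanced in both assays. Of the 3997 genes that had changed in mRNA at 72 h, replicate 2 was further along than replicate 1 at 48 h in 3128. For 582 of them it was ahead by at least 2-fold, while replicate 1 was ahead by that much for 16. Over genes, the differences between the 48 h replicates had a correlation of 0.858 between mRNA and RNC-mRNA of equal number. The same correlation was 0.033 in *rpl9a*∆ at 24 h, 0.197 at 72 h and at most 0.041 in wt. Whether equally numbered libraries of the assays came from the same culture is not stated in the labels.

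In RNC-mRNA at 72 h the order was the reverse. Replicate 1 lay at 0.769, beyond all libraries of 48 h, and replicate 2 lay at 0.179, lower than either RNC-mRNA library of 48 h. Replicate 2 was most like a 48 h library of its own strain, replicate 1 (correlation of log2 CPM over genes 0.961). Among group means it was nearest to wt at 72 h (0.945) and then to *rpl9a*∆ at 48 h (0.939). Replicate 1 was nearest to *rpl38*∆ at 72 h (0.977). The mRNA replicates of 72 h did not show this difference, with places of 1.02 and 0.982 and a correlation of 0.992. All wt libraries of 48 and 72 h lay between 0.036 and 0.088. The labels do not say how these libraries differed in handling, and the cause of their differences was not tested. The counts of RP and chaperone genes that rest on the 48 h libraries or on the RNC-mRNA of 72 h are therefore given with and without each replicate, other than those against *rpl38*∆, which were fitted with both.

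**Figure D2:**
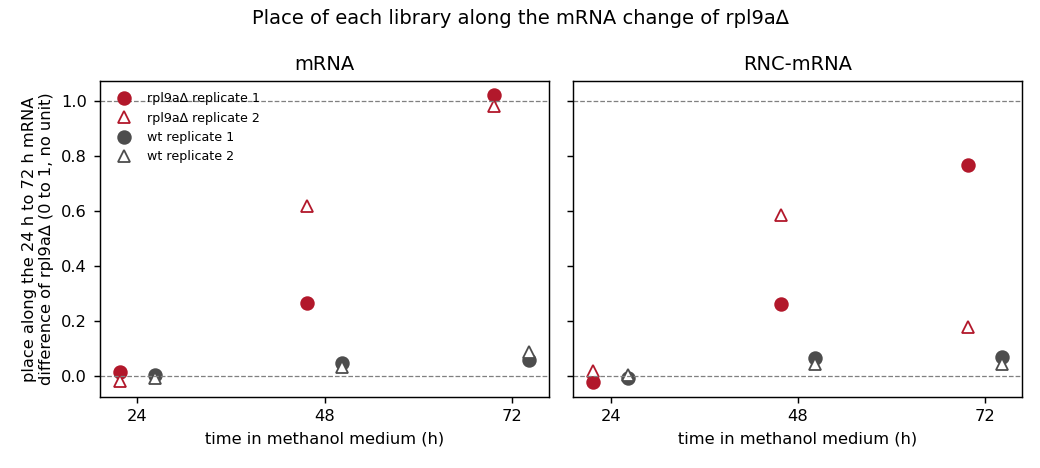
Place of each library along the 24 to 72 h mRNA difference of *rpl9a*∆ (no unit) by time (h), for mRNA (left) and RNC-mRNA (right). The 24 h mean of the strain and assay is at 0, and 1 is a shift from it as large as that of *rpl9a*∆ mRNA at 72 h. Filled circles are replicate 1 and open triangles replicate 2, *rpl9a*∆ in red and wt in grey. At 48 h replicate 2 of *rpl9a*∆ is ahead in both assays, and in RNC-mRNA at 72 h it lies at 0.179 with replicate 1 at 0.769.

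In mRNA at 72 h, RP transcripts of both subunits had fallen steeply in *rpl9a*∆. Of the 86 RP genes, 85 were lower than at 24 h, and the remaining one was the deleted *RPL9A*. Their median log2 fold change was −3.41, with the median of all genes tested at 0.045. The background was 37.2% of all genes called lower and 39.2% called higher (edgeR quasi-likelihood test, Benjamini-Hochberg adjusted p under 0.05). For the large subunit 48 of 49 genes fell, with a median of −3.33, and for the small subunit 37 of 37, with −3.52. Of the 85, 83 fell at least 2-fold, 79 at least 4-fold, 59 at least 8-fold and 12 at least 16-fold. In each 72 h mRNA library, all 85 RP genes other than *RPL9A* lay below both 24 h libraries, whereas 45.6% and 45.2% of all genes did. The count was 84 to 86 in the refits with other scalings, dispersions or tests, without a filter, with the replicate block, or with 1 of the 4 libraries left out. A filter that asked for over 10 reads in each library kept 79 RP genes and called all 79 lower.

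The reads on RP genes show the same fall without any model. They made up 3.38% and 3.82% of the host gene reads in *rpl9a*∆ mRNA at 24 h, 2.97% and 1.80% at 48 h, and 0.525% and 0.623% at 72 h. In wt the shares were 3.41% and 3.90% at 24 h, 2.81% and 2.90% at 48 h, and 2.57% and 2.44% at 72 h. At 24 h the strains overlapped, and at 72 h both *rpl9a*∆ libraries were far below both wt libraries. In *rpl38*∆ the shares were 2.88% and 3.09%, 1.64% and 1.5%, and 0.956% and 0.750% at the same times. These are shares of a library, so a fall of RP mRNA and a rise of the other mRNAs per cell cannot be told apart.

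**Figure D3:**
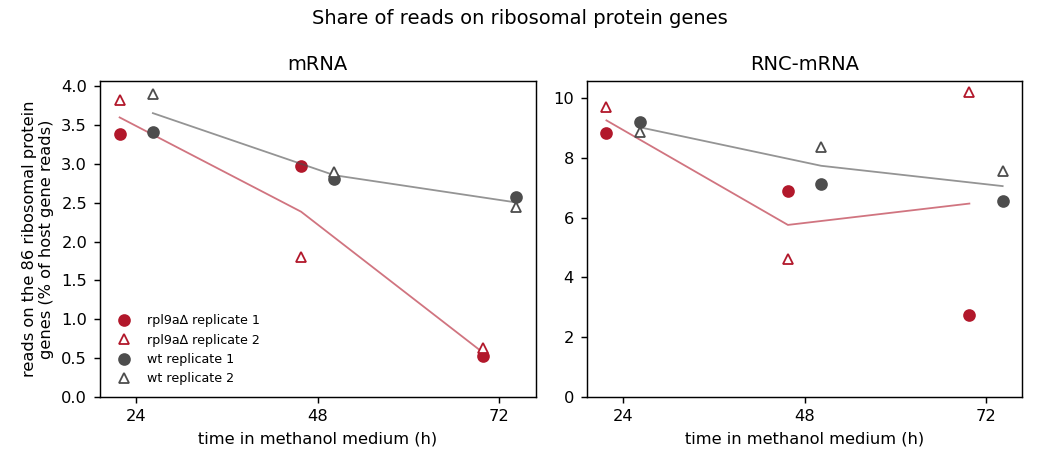
Reads on the 86 RP genes as a percentage of host gene reads by time (h) in mRNA (left) and RNC-mRNA (right). Circles are replicate 1, triangles replicate 2, and lines join the means, *rpl9a*∆ in red and wt in grey. The *rpl9a*∆ mRNA ends at 0.525% and 0.623%, and its RNC-mRNA at 72 h splits into 2.74% and 10.2%.

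The lowest fitted log2 fold change of an RP gene in mRNA at 72 h was that of *RPS28A*, which had 0 and 3 reads at 72 h. *RPL9B* (Pipas_chr1-1_0382), the only source of Rpl9 in this strain, came next. Its mRNA stood at 404 and 478.5 TMM-scaled CPM (counts relative to the size of the library, which edgeR adjusted between libraries) at 24 h, 256 and 69.7 at 48 h, and 8.12 and 9.22 at 72 h. In wt it was at 274 and 328 CPM, 199.9 and 218, and 149 and 126 at these times. At 24 h both *rpl9a*∆ libraries were above both of wt, and at 72 h both were below. The order at 24 h rests on TMM scaling. By library size alone the *rpl9a*∆ libraries were at 279 and 321 CPM at 24 h and overlapped those of wt. The log2 fold change at 72 h against 24 h was −5.67 (standard error 0.404, adjusted p = 8.2e-11 from edgeR), a 50.8-fold fall. The change differed from that in wt by −4.53 (adjusted p = 1.3e-07 from edgeR's interaction test). *RPL9B* fell in *rpl38*∆ as well, where it was at 209 and 207 CPM at 24 h, 43.2 and 36.9 at 48 h, and 14.5 and 9.01 at 72 h. The *rpl9a*∆ change at 72 h differed from that of *rpl38*∆ by −1.59 (standard error 0.565, adjusted p = 0.0373 from edgeR).

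**Figure D4:**
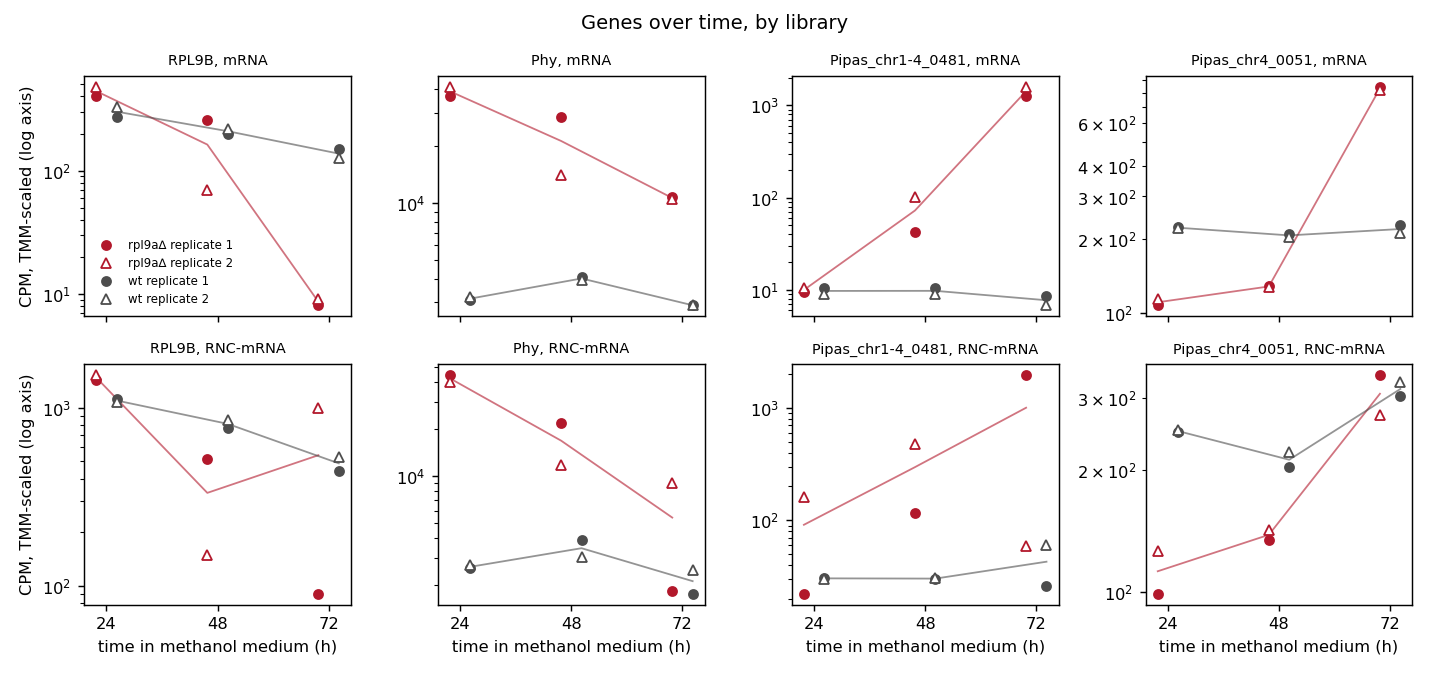
TMM-scaled CPM (log axis) by time (h) of *RPL9B*, Phy, Pipas_chr1-4_0481 and the chaperone gene Pipas_chr4_0051 in mRNA (top) and RNC-mRNA (bottom). Circles are replicate 1, triangles replicate 2, lines join the means, *rpl9a*∆ in red and wt in grey. *RPL9B* mRNA of *rpl9a*∆ ends at 8.12 and 9.22 CPM, while its RNC-mRNA at 72 h has 90.2 CPM in replicate 1 and 993 in replicate 2.

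The other paralog pairs fell together, but often to different degrees. The 2 genes of *RPS22*, a small subunit protein, were at −4.98 (*RPS22A*, standard error 0.358) and −2.47 (*RPS22B*, 0.369) in mRNA at 72 h. *RPS22A* had 257 and 336 CPM at 24 h, 156 and 67.9 at 48 h, and 8.71 and 9.98 at 72 h, while *RPS22B* was low throughout, with 14.3 and 12.7, 8.10 and 3.90, and 2.15 and 2.78. For *RPL8*, a large subunit protein, the changes were −2.08 (*RPL8A*, 0.258) and −4.09 (*RPL8B*, 0.225). For *RPS27* they were −3.96 (*RPS27A*, 0.376) and −1.35 (*RPS27B*, 0.242). Closer to each other were *RPS6A* and *RPS6B* (−3.81 and −4.69), which encode the small subunit protein that nutrient signalling phosphorylates, *RPL2A* and *RPL2B* (−2.83 and −3.33), *RPL6A* and *RPL6B* (−3.11 and −2.41), and *RPP1A* and *RPP1B* (−2.30 and −2.89), which encode acidic proteins of the stalk that recruits translation factors. Differences within pairs were not tested. All of these genes passed the adjustment at 72 h. *RPS28B* was at −2.77 (0.372), and its paralog *RPS28A* had too few reads at 72 h for a fitted fold at that time to be meaningful. *RPS28A* had 110 and 37 mRNA reads at 24 h, 45 and 25 at 48 h, and 0 and 3 at 72 h, a ratio of 0.0114 of 72 h to 24 h after scaling of the libraries (95% exact interval 0.00233 to 0.0341, counting error only).

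The RP genes whose loss defines the other deletion strains were intact in *rpl9a*∆ and fell with the rest. *RPL38* mRNA was at 69.0 and 79.0 CPM at 24 h, 35.6 and 18.6 at 48 h, and 3.22 and 4.42 at 72 h. Its log2 fold change at 72 h was −4.27 ± 0.332 (standard error), which passed with an adjusted p = 2.9e-10 from edgeR. *RPS7* changed by −3.53 (0.234) and *RPS25* by −2.83 (0.276). In wt, *RPL38* was at 35.6 and 46.9 CPM at 72 h and at 41.8 and 50.7 at 24 h, which overlap.

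A few RP genes changed far less than the median of the list. *RPS30*, a small subunit protein gene, had 120 and 116 CPM at 24 h, 88.5 and 79.5 at 48 h, and 65.5 and 73.6 at 72 h, a change of −0.76 (standard error 0.162, adjusted p = 2.4e-04 from edgeR). *RPL10*, whose protein joins the large subunit late and is needed for the subunits to join, had 909 and 1050 CPM, 793 and 484, and 537 and 603, a change of −0.78 (0.149, adjusted p = 7.7e-05). Both fell less than 2-fold. *RPS27B* (−1.35) and *RPL19* (−1.62, 0.138) followed them in that order.

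At 48 h the RP mRNAs were already lower, but by an amount that depended on the replicate. Of the 86, 83 fell, with a median log2 fold change of −1.10, against backgrounds of 26.9% lower and 32.6% higher over all genes and a median of 0.05. The median over RP genes was −0.72 in replicate 1 and −1.63 in replicate 2, each taken against the mean of the 24 h libraries. In replicate 1, 83 of 85 RP genes lay below both 24 h libraries, and in replicate 2 all 85 did, against 40.5% and 44.5% of all genes. Both replicates thus showed the fall, and replicate 2 the larger one. Without replicate 1 of 48 h 85 RP genes were called lower (median −1.63). Without replicate 2 78 were called lower and 1 higher (−0.73). With the dispersion taken from the *rpl9a*∆ libraries alone 41 were called, and from the 4 libraries compared, 2, where 71 had an unadjusted p under 0.05.

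The lowest at 48 h was *RPP2* (−1.83, standard error 0.280, adjusted p = 1.2e-05 from edgeR), another stalk protein, with 40.5 and 21.6 CPM at 48 h against 93.6 and 129 at 24 h. *RPS29*, *RPS28A* and the gene listed as *RPS26* followed with −1.63, −1.61 and −1.57. The name *RPS26* is less certain, since its description in the study's gene list is of another protein, and the description of *RPL28* is in part. *RPL6B* did not pass the test at 48 h (−0.01, adjusted p = 0.9804 from edgeR). Its replicates stood on either side of the 24 h values, with 378.5 and 170.0 CPM at 48 h against 252 and 301 at 24 h. Without replicate 2 it was called higher (0.46, adjusted p = 0.0067 from edgeR).

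**Figure D5:**
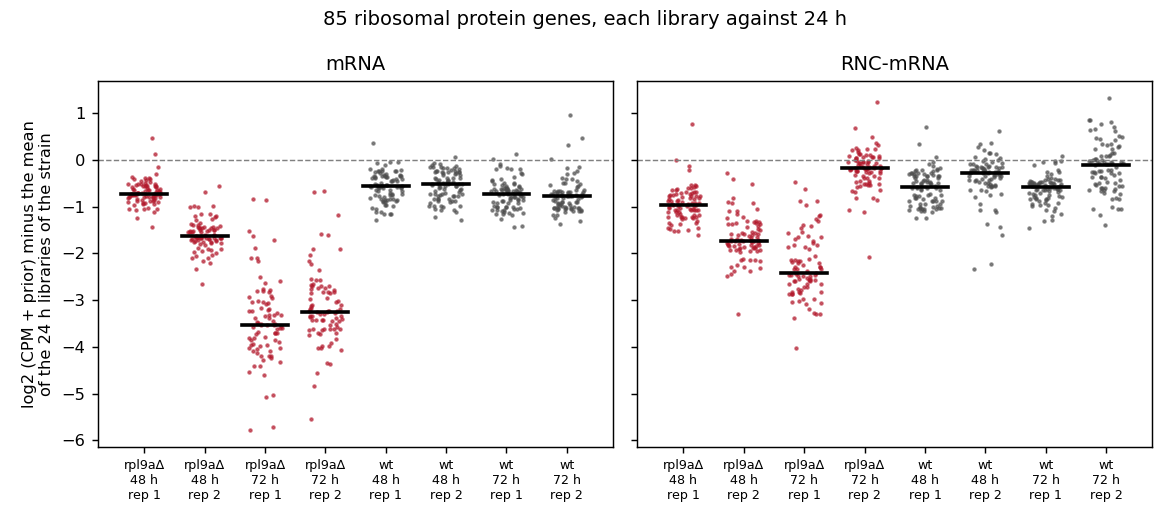
Log2 CPM of each of 85 RP genes (points, *RPL9A* left out) in each library of 48 and 72 h minus the mean of the 24 h libraries of its strain, in mRNA (left) and RNC-mRNA (right), with the median as a bar. In *rpl9a*∆ mRNA (red) the medians are −0.72 and −1.63 at 48 h and −3.53 and −3.25 at 72 h. In RNC-mRNA at 72 h they are −2.42 and −0.17, and the wt libraries (grey) lie between −0.11 and −0.79.

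Set against wt, the fall of RP mRNA was deeper in *rpl9a*∆ at 72 h. In wt, 68 of the 86 RP genes were lower at 72 h than at 24 h (median −0.80, background 15.7%) and 45 at 48 h (−0.56, background 10.8%). The test of the difference between the strains called 84 RP genes lower in *rpl9a*∆ at 72 h, with a median difference of −2.60, where 32.4% of all genes were called lower and 32.6% higher. At 48 h it called 25 (median −0.53, backgrounds 18.8% lower and 21.9% higher), and this count did not hold across replicates. It was 75 without replicate 1 of *rpl9a*∆ at 48 h and 8 without replicate 2. It was 7 without replicate 2 of *rpl9a*∆ at 24 h or replicate 1 of wt at 24 h. With only the *rpl9a*∆ and wt libraries in the edgeR fit, 0 RP genes were called at 48 h, and 11 had an unadjusted p under 0.05. The share of RP reads at 48 h also overlapped, with 2.97% and 1.80% in *rpl9a*∆ and 2.81% and 2.90% in wt.

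The fall was not particular to *rpl9a*∆. In *rps7*∆ mRNA the RP share of host gene reads went from 3.31% and 3.33% at 24 h to 0.798% and 0.782% at 72 h. In *rps25*∆ it was 4.57% and 4.86% at 24 h, 2.58% and 2.41% at 48 h, and 3.78% and 3.15% at 72 h. The time steps of these strains were not tested. The comparison with *rpl38*∆ was chosen after seeing that, of the other strains, its libraries of 48 and 72 h lay furthest along the *rpl9a*∆ time scale. In *rpl38*∆ mRNA, 85 RP genes were lower at 72 h (median −2.30, background 34.2%) and 82 at 48 h (−1.34, background 32.1%). The test of the difference found 57 RP genes lower and 1 higher in *rpl9a*∆ than in *rpl38*∆ at 72 h (median −1.02, backgrounds 15.2% and 16%). At 48 h it found 6 higher (median 0.30, background 19.7%). The *rpl38*∆ mRNA replicates of 48 h lay at 0.599 and 0.610 along the *rpl9a*∆ time scale, the place of replicate 2 of *rpl9a*∆, and those of 72 h at 0.709 and 0.752.

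In RNC-mRNA of *rpl9a*∆ at 48 h, 59 of the 86 RP genes were lower than at 24 h (median −1.29, backgrounds 14.6% lower and 18.2% higher), among them *RPL9A*, whose change rests on 2 to 31 reads. The fall was seen in both libraries, with 83 of 85 RP genes below both 24 h libraries in replicate 1 (median −0.96) and 85 in replicate 2 (−1.73). The number called was less firm than the direction. It was 63 without replicate 1 of 48 h and 6 without replicate 2, and 15 and 16 without replicates 1 and 2 of 24 h. With the 6 *rpl9a*∆ libraries fitted alone, 0 RP genes and 0 genes in all were called by edgeR, where 8 RP genes and 1154 genes had an unadjusted p under 0.05. Scaled by library size alone, 13 RP genes were called lower (median −0.67), where 262 of all 5210 genes were lower and 2626 higher. *RPP1A* (−1.89, standard error 0.372, adjusted p = 6.8e-04 from edgeR), *RPS2* (−1.91, 0.400, adjusted p = 0.0012), whose protein bears on decoding accuracy in *Saccharomyces cerevisiae*, and *RPL9B* (−2.15, 0.652, adjusted p = 0.0165) were the lowest of those with more than a few reads. *RPL9B* RNC-mRNA had 516 and 149 CPM at 48 h against 1434 and 1522 at 24 h. It did not pass without either 24 h replicate or without replicate 2 of 48 h, where the change was −1.52 (adjusted p = 0.1552 from edgeR).

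At 72 h the RNC-mRNA replicates gave different answers for RP genes. In replicate 1 all 85 lay below both 24 h libraries, with a median of −2.42. In replicate 2, 55 lay below and 18 above both, with a median of −0.17, where 39.2% of all genes lay below. RP genes took 2.74% of the host gene reads in replicate 1 and 10.2% in replicate 2, against 8.82% and 9.69% at 24 h. Replicate 2 thus exceeded both 24 h libraries, and wt at 72 h held 6.55% and 7.56%. With both replicates, 21 RP genes were called lower (median −0.88, backgrounds 16.2% lower and 24% higher). Without replicate 2, 82 were called lower (median −2.43). Without replicate 1, 5 were called lower and 1 higher (−0.18). In *rpl38*∆ RNC-mRNA at 72 h, 84 RP genes were lower (median −2.45, background 26.3%). The replicates of that *rpl38*∆ group also differed, with an SD of 0.573, the third widest in RNC-mRNA, and RP shares of 1.46% and 2.85%. Against *rpl38*∆, 17 RP genes were higher in *rpl9a*∆ at 72 h (median difference 1.57, backgrounds 6.95% higher and 3.93% lower). That comparison rests on the split *rpl9a*∆ pair, and it was not refitted without either *rpl38*∆ replicate.

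In wt RNC-mRNA few RP genes passed the test, although most lay below 24 h. At 48 h, 80 of 85 in replicate 1 and 72 in replicate 2 lay below both 24 h libraries (medians −0.58 and −0.29). Of all genes 41.7% and 43.6% did. At 72 h these were 80 and 49 RP genes (−0.58 and −0.11), against 44.7% and 46.2% of all genes. At 48 h, 0 RP genes of wt were called by edgeR, with 11 at an unadjusted p under 0.05 (median −0.41, backgrounds 0.653% higher and 0.307% lower, 0.96% in all). At 72 h only *RPS2* was called lower (median −0.33, backgrounds 7.01% higher and 5.8% lower). The test of the difference between the strains called 3 RP genes lower in *rpl9a*∆ at 48 h, which were *RPL9A*, *RPP1A* and *RPS2* (median −0.89, backgrounds 6.68% higher and 6.74% lower). It also called 3 at 72 h, which were *RPL9A*, again on few reads, *RPP1A* and *RPS22B* (median −0.51, backgrounds 9.16% higher and 8.52% lower). The count at 72 h was 79 without replicate 2 of *rpl9a*∆ (median −1.99) and 1 without replicate 1 (0.20), so a single library decided it. At 48 h it was 6 without replicate 1 and 1 without replicate 2, and voom with quality weights called 47.

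Single genes showed the split plainly. *RPL9B* RNC-mRNA at 72 h had 90.2 CPM in replicate 1 and 993 in replicate 2, against 1434 and 1522 at 24 h. Its change of −1.45 did not pass (adjusted p = 0.0757 from edgeR). It was −4.03 without replicate 2 (adjusted p = 2.8e-06) and −0.57 without replicate 1 (0.3384). *RPS6B* had 268 and 1681 CPM at 72 h against 1514 and 1756 at 24 h, and *RPL38* 70.9 and 272 against 198 and 268. In both genes replicate 2 was within or above the range of 24 h. Other RP genes were lower in both libraries and passed the test. *RPS22B* had 6.81 and 12.05 CPM against 61.9 and 44.0 (−2.51, standard error 0.316, adjusted p = 4.6e-06 from edgeR). *RPS2* had 308 and 1325 CPM against 2886 and 2717 (−1.78, 0.398, 0.0014), and *RPP1A* had 63.0 and 210 against 432 and 486 (−1.75, 0.369, 8.7e-04).

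The translation ratio, RNC-mRNA over mRNA, was tested as an interaction over all 60 libraries. At 72 h against 24 h it was higher for 79 of the 86 RP genes in *rpl9a*∆ (median log2 change 2.40, background 22.5%). It came from mRNA that fell further than RNC-mRNA. *RPL9B* was at 4.17 (standard error 0.794, adjusted p = 1.3e-04 from edgeR) and *RPS6B* at 3.91 (0.592, 7.6e-06). The size of both ratios rests on the split RNC-mRNA pair of 72 h. The RNC-mRNA change of *RPL9B* was −4.03 without replicate 2 and −0.57 without replicate 1. That of *RPS6B* ran from −2.61 to 0.04 over the fits that left out 1 library. *RPL10* (0.40, adjusted p = 0.2963 from edgeR) and *RPS30* (0.42, 0.4024), whose mRNA had changed least, did not pass. The number of genes called depended on the RNC-mRNA libraries of 72 h. Without replicate 2 of that group 35 RP genes were higher (median 0.92), and without replicate 1 83 (3.15). At 48 h the median of the RP genes was −0.21, and *RPL9B* did not pass (−0.73, adjusted p = 0.8456 from edgeR). The sign of that median depended on the library. It was 0.30 without replicate 1 of the 48 h mRNA and −0.60 without replicate 2. Without replicates 1 and 2 of the 48 h RNC-mRNA it was −0.64 and 0.08. Over all genes at 48 h, 21 were higher and 0 lower by edgeR, with 535 at an unadjusted p under 0.05 and 57 called by DESeq2.

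Phy started far above wt and fell with time in *rpl9a*∆. Its mRNA was at 36790 and 41260 CPM at 24 h, 28540 and 14140 at 48 h, and 10790 and 10560 at 72 h. In wt it was at 3096 and 3185, 4082 and 3940, and 2900 and 2892 CPM. Even at 72 h both *rpl9a*∆ libraries were above all 6 of wt. The log2 fold change within *rpl9a*∆ was −0.87 at 48 h (standard error 0.209, adjusted p = 0.0013 from edgeR) and −1.87 at 72 h (0.215, 9.8e-08). The 48 h change was −1.46 without replicate 1 of 48 h and −0.46 without replicate 2, and passed in both. It differed from the change in wt by −1.22 at 48 h (adjusted p = 0.0023 from edgeR) and −1.75 at 72 h (3.0e-05). The difference from *rpl38*∆ was −0.18 at 72 h (standard error 0.294, adjusted p = 0.6769 from edgeR) and did not pass.

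Phy RNC-mRNA of *rpl9a*∆ was at 44260 and 40220 CPM at 24 h, 21920 and 11760 at 48 h, and 1818 and 9002 at 72 h. In wt it was at 2553 and 2679, 3876 and 3008, and 1754 and 2478 CPM. At 72 h replicate 1 had fallen into the range of wt and replicate 2 had not. The change was −1.33 at 48 h (standard error 0.562, adjusted p = 0.0752 from edgeR), which did not pass with both replicates or without either one of 48 h (−1.84 and −0.95), and −2.97 at 72 h (0.595, 5.8e-04). The 72 h change passed without replicate 2 (−4.54) and without replicate 1 (−2.23, adjusted p = 0.0029 from edgeR). The translation ratio of Phy at 72 h was −1.13 (standard error 0.607, adjusted p = 0.1477 from edgeR). Phy in replicate 2 of the RNC-mRNA at 72 h was thus well below its 24 h level, in a library whose median RP gene lay at −0.17.

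Chaperone genes were followed as a second group of 55 gene IDs listed by the study, most of which fell. The list names no genes that the files annotate, and whether it was chosen on these libraries is not given. In *rpl9a*∆ mRNA, 41 were lower and 5 higher at 48 h (median −0.72, backgrounds 26.9% and 32.6%), and 39 lower and 6 higher at 72 h (−1.12, backgrounds 37.2% and 39.2%). The 48 h counts were 42 and 5 without replicate 1 of 48 h, and 35 and 3 without replicate 2. They were 26 and 1 from the *rpl9a*∆ libraries alone, 16 and 0 from the 4 libraries compared (30 at an unadjusted p under 0.05 in edgeR, either way) and 27 and 1 by voom with quality weights. The test of the difference from wt called 31 lower and 2 higher at 48 h (backgrounds 18.8% and 21.9%), and 33 lower and 7 higher at 72 h (32.4% and 32.6%). At 48 h these were 39 and 4 without replicate 1, and 30 and 4 without replicate 2. Reads on chaperone genes took 8.30% and 7.85% of host gene reads at 24 h, 3.71% and 2.69% at 48 h, and 3.62% and 3.63% at 72 h. In wt mRNA they took 5.36% and 5.11%, 4.21% and 4.02%, and 4.67% and 4.40%. The fall in *rpl9a*∆ thus began from a share above that of wt at 24 h and ended below it. At 48 h the chaperone share of *rpl9a*∆ lay on either side of its 72 h level, whereas the RP share was still above its own in both replicates. Scaled by library size alone, the counts were 25 lower and 12 higher at 48 h, and 32 lower and 14 higher at 72 h. Of all 5229 genes, that scaling called 619 lower and 3099 higher at 48 h, and 1300 lower and 2925 higher at 72 h.

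The most strongly lowered chaperone gene in mRNA at 72 h was Pipas_chr3_0731, with 2817 and 3287 CPM at 24 h, 1675 and 827 at 48 h, and 165 and 184 at 72 h (−4.13, standard error 0.227, adjusted p = 1.8e-12 from edgeR). Pipas_chr4_0552 had 11850 and 12590 CPM, 2286 and 968, and 751 and 702.5 (−4.07, 0.263, 1.9e-11). Most of its fall lay before 48 h. The most strongly raised was Pipas_chr4_0051, with 107 and 114 CPM at 24 h, 129 and 128 at 48 h, and 846 and 820.2 at 72 h (2.92, 0.0943, 1.8e-15). It had stayed close to its 24 h level at 48 h in both replicates. Pipas_chr2-1_0330 was at 96.0 and 101 CPM, 68.7 and 76.4, and 327 and 268 (1.60, 0.116, 1.0e-10), lower at 48 h and higher at 72 h.

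In RNC-mRNA, 31 chaperone genes were lower and 2 higher at 48 h (median −0.83, backgrounds 14.6% and 18.2%), and 28 lower and 4 higher at 72 h (−0.68, backgrounds 16.2% and 24%). At 48 h 27 were lower without replicate 1 and 26 without replicate 2, and at 72 h 23 without replicate 1 and 33 without replicate 2. Most calls were lost with a dispersion from fewer libraries. From the *rpl9a*∆ libraries alone edgeR called 0 lower at 48 h (27 at an unadjusted p under 0.05) and 4 at 72 h, and from the 4 libraries compared 12 at 48 h and 0 at 72 h (22 at an unadjusted p under 0.05). Voom with quality weights called 30 at 48 h and 10 at 72 h. The chaperone share of RNC-mRNA reads was 6.93% and 6.17% at 24 h, 3.92% and 2.85% at 48 h, and 4.65% and 3.68% at 72 h, so both 72 h libraries lay below both 24 h libraries. Pipas_chr4_0552 RNC-mRNA was at 2381 and 3778 CPM at 72 h against 10600 and 8927 at 24 h (−1.67, standard error 0.375, adjusted p = 0.0015 from edgeR). Pipas_chr3_0731 was split, with 260 CPM in replicate 1 and 2776 in replicate 2 at 72 h, against 2514 and 2243 at 24 h. By library size alone the chaperone counts at 72 h were 13 lower and 14 higher, where 397 of all 5210 genes were lower and 2427 higher.

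Over all genes, 1707 were higher and 1404 lower in *rpl9a*∆ mRNA at 48 h, and 2050 higher and 1947 lower at 72 h. For 138 of the genes called at 48 h the replicates of the 2 times overlapped. In wt these counts were 576 and 566 at 48 h (21.8% of genes in all), and 737 and 820 at 72 h (29.8%). The test of the difference between the strains passed for 2127 genes at 48 h and 3402 (65.1%) at 72 h. In RNC-mRNA of *rpl9a*∆, 946 were higher and 763 lower at 48 h, and 1249 higher and 844 lower at 72 h (40.2% in all). At 72 h, 22.4% of the genes were called higher with replicates that did not overlap those of 24 h. Of the genes called lower in mRNA at 72 h, 657 were also called lower in RNC-mRNA (33.8% of the mRNA list and 77.8% of the RNC-mRNA list). A further 117 were lower in mRNA and higher in RNC-mRNA, and 43 the other way round. Of the genes called higher, 926 were shared (45.3% and 74.1%). Without TMM, library size alone moved all genes up by 0.485 (log2, mRNA at 48 h), 0.493 (mRNA at 72 h), 0.642 (RNC-mRNA at 48 h) and 0.52 (RNC-mRNA at 72 h). It raised the share of calls that were higher to 83.4% in place of 54.9% in mRNA at 48 h, to 69.2% in place of 51.3% at 72 h, to 90.9% in place of 55.4% in RNC-mRNA at 48 h, and to 85.9% in place of 59.7% at 72 h. The medians of the RP genes were below 0 under both scalings in all 4 comparisons.

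Beside *RPL9B*, the genes named for the largest changes in mRNA at 72 h were known only by their IDs. Pipas_chr4_0268 had 12 and 2 reads at 24 h, 49 and 229 at 48 h, and 3335 and 3062 at 72 h, a log2 fold change of 7.99 (standard error 0.456, adjusted p = 2.9e-12 from edgeR). Pipas_chr1-4_0481 was at 9.41 and 10.6 CPM, 42.9 and 102, and 1263 and 1593 (7.18, 0.349, 3.9e-13), and Pipas_chr1-1_0319 at 3996 and 4544, 1976 and 308, and 87.1 and 89.3 (−5.60, 0.499, 2.4e-09). In each of these genes, replicate 2 of 48 h was nearer to the 72 h level than replicate 1. In RNC-mRNA at 72 h, Pipas_chr1-4_0481 had 1938 CPM in replicate 1 and 59.0 in replicate 2, and Pipas_chr1-1_0319 had 55.4 and 1268. In both genes replicate 1 lay nearer to the mRNA level of 72 h and replicate 2 nearer to 24 h, where Pipas_chr1-4_0481 had 22.3 and 161 CPM and Pipas_chr1-1_0319 had 7566 and 7657.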

How the data were processed

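The authors deposited raw read counts of 5319 host genes in every library and those of Phy in another table. Their methods name polyA+ selection and Illumina sequencing. Aligner, counter and genome build: not given in the sources used here. Deposited RPKM values were not used. Phy was added to the counts as 1 gene. A gene was kept if 2 or more libraries had over 10 reads of it. Each assay was fitted with edgeR 4.0.16 (R 4.3.3, TMM scaling, quasi-likelihood test, 1 mean for each of 15 groups), and the translation ratio as an interaction over 60 libraries. P-values were adjusted by Benjamini-Hochberg over all genes tested, with a threshold of 0.05. Standard errors are the log2 fold change over the square root of F. Place and similarity used log2 CPM with a prior count of 2.

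RP names come from the study's homology table, matched by ID, and none of the 5319 IDs matched the reference gene table, so other genes keep their IDs and no sequences are given. The members, lists and tests were chosen with earlier results of these data known. Named genes are *RPL9A*, *RPL9B*, Phy, the other deleted genes, the RP paralogs, the 4 highest and 4 lowest RP genes per comparison within *rpl9a*∆, and, in mRNA at 72 h, the 2 highest and 2 lowest chaperone genes and IDs (mean of at least 100 CPM), each past the threshold with replicates that did not overlap. Chosen after seeing the data were the comparison with *rpl38*∆, the counts of gene lists under each setting and library, and the crossed block. Alternatives were other scalings, filters, dispersions and tests (DESeq2 1.42.0, limma 3.58.1 voom with quality weights), a replicate block, a fold change criterion and leaving out each library. On simulated mRNA counts at 72 h, 98% of genes changed by a log2 fold of 1 were recovered, and 100% of those changed by 2. In RNC-mRNA these rates were 50% and 94%. They hold for the simulated counts alone. They do not give the power of the real RNC-mRNA comparison of 72 h, whose *rpl9a*∆ replicates disagreed (SD 1.07). All per-sample count columns were used (0 left out).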

Additional observations from a re-analysis of the deposited data

Results flagged for a closer look

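Each value here is the log2 fold change of *rpl9a*∆ minus that of wt over the same time step. Only Phy, the other deleted genes, the RP paralogs and the named chaperone genes and IDs were looked at. Those listed passed edgeR's interaction test of the difference (Benjamini-Hochberg adjusted p under 0.05). Over all genes, 40.7% passed in mRNA at 48 h and 65.1% at 72 h, and 13.4% and 17.7% in RNC-mRNA. The chaperone genes and IDs had been chosen by their change in *rpl9a*∆ mRNA at 72 h, so their differences in mRNA are no separate support. Groups of 2 replicates are too small for a test of single outlying libraries.

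In mRNA at 48 h against 24 h, the RP genes among them were lower in *rpl9a*∆, with *RPS7* at −0.79, *RPL8B* at −0.81, *RPL2B* at −0.79, *RPL6A* at −0.67, *RPS6B* at −1.13 and *RPP1B* at −0.52. The *rpl9a*∆ replicates of 48 h disagree, and these RP differences depended on the fit. With only the *rpl9a*∆ and wt libraries in the edgeR fit, 0 RP genes were called, where 11 had an unadjusted p under 0.05. The median difference over all RP genes was −1.05 without replicate 1 of *rpl9a*∆ at 48 h and −0.16 without replicate 2. Phy differed by −1.22. Of the chaperone genes, Pipas_chr3_0731 differed by −0.87, Pipas_chr4_0552 by −2.03, Pipas_chr2-1_0330 by −0.66 and Pipas_chr4_0051 by 0.32. Pipas_chr1-1_0319 differed by −2.19, Pipas_chr1-4_0481 by 2.88 and Pipas_chr4_0268 by 4.05.

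In mRNA at 72 h, the differences of large subunit genes were −4.53 (*RPL9B*), −4.10 (*RPL38*), −3.35 (*RPL8B*), −1.25 (*RPL8A*), −2.43 (*RPL2B*), −1.87 (*RPL2A*), −2.50 (*RPL6A*), −2.18 (*RPL6B*), −1.41 (*RPP1A*) and −2.13 (*RPP1B*). Small subunit genes were at −2.82 (*RPS7*), −2.10 (*RPS25*), −1.26 (*RPS22B*), −3.80 (*RPS22A*), −2.41 (*RPS28B*), −2.999 (*RPS27A*), −3.97 (*RPS6B*) and −2.64 (*RPS6A*). Phy was at −1.75. Pipas_chr3_0731 was at −3.15, Pipas_chr4_0552 at −3.48, Pipas_chr2-1_0330 at 0.66, Pipas_chr4_0051 at 2.94, Pipas_chr1-1_0319 at −5.04, Pipas_chr1-4_0481 at 7.52 and Pipas_chr4_0268 at 7.54.

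In RNC-mRNA at 48 h, *RPP1A* (−1.97) and Pipas_chr4_0552 (−2.08) differed from wt. At 72 h, where the *rpl9a*∆ replicates disagree, Phy (−2.66), *RPS22B* (−1.64), *RPP1A* (−1.53), Pipas_chr4_0552 (−1.87) and Pipas_chr2-1_0330 (−0.86) did.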

How the results depend on the processing

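The mRNA comparison of 72 h against 24 h was the most stable, with 3661 to 3745 genes called over the fits that leave out 1 library, and 4201 without both *rpl9a*∆ libraries of 48 h. The ranges were 2574 to 3704 for mRNA at 48 h, 896 to 1701 and 1301 to 2755 for RNC-mRNA at 48 and 72 h, and 0 to 40 and 1170 to 2726 for the translation ratio. For *rpl9a*∆ minus wt they were 1702 to 3050 and 3131 to 3211 in mRNA (3694 at 72 h without both libraries of 48 h) and 410 to 789 and 510 to 1940 in RNC-mRNA. The cause of the differences below was not tested.

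Voom with quality weights called 1066 genes in mRNA at 48 h and 488 in RNC-mRNA at 72 h, with 820 and 259 for the difference from wt, and 0 and 560 for the translation ratio at 48 and 72 h (100 at an unadjusted p under 0.05 at 48 h). The *rpl9a*∆ libraries fitted alone in edgeR gave 1303 in mRNA at 48 h, and 0 and 164 in RNC-mRNA at 48 and 72 h. The 4 libraries of a comparison gave 393, 268 and 0, with 1183 at an unadjusted p under 0.05 in the last, RNC-mRNA at 72 h. The *rpl9a*∆ and wt libraries alone gave 1259 for the difference in mRNA at 48 h and 150 and 193 in RNC-mRNA. Library size alone gave 2888 in RNC-mRNA at 48 h, 1349 and 1553 for its differences from wt, and 70 for the translation ratio at 48 h, where DESeq2's size factors gave 6, its Wald test 57 and no filter 9. A log2 fold change over 1 with an unadjusted p under 0.01 gave 898 and 2016 in mRNA, 796 and 1880 for its differences from wt, 922 and 1138 in RNC-mRNA, and 54 and 1150 for the translation ratio.

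The replicate numbers were not shown to pair the times. The replicate differences had correlations between times of −0.106 to 0.057 in mRNA and −0.732 to 0.106 in RNC-mRNA. With the replicate number as a block, 598 genes differed from wt in RNC-mRNA at 72 h and 12 passed for the translation ratio at 48 h. The block called 23 RP genes lower in RNC-mRNA at 48 h. Crossing the numbers of the 72 h libraries, chosen after seeing the data, gave 1262 higher and 1057 lower in RNC-mRNA at 72 h.

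Library size alone turned the sign of *RPS27B* (0.12), *RPL6B* (0.45) and Pipas_chr2-1_0330 (0.053) in mRNA at 48 h, of *RPS27B* (0.039), *RPL8A* (0.25), *RPS30* (0.093) and Pipas_chr2-1_0330 (0.15) in RNC-mRNA at 48 h, and of *RPL38* (0.003), *RPS25* (0.052), *RPS27B* (0.33), *RPS28A* (0.42), *RPL8A* (0.047), *RPL14* (0.089), *RPL10* (0.12) and *RPS30* (0.19) in RNC-mRNA at 72 h.

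Leaving out 1 library turned further signs, nearly all in RNC-mRNA at 72 h without replicate 1. There the lowest and highest values were −0.89 and 0.35 (*RPS27B*), −1.37 and 0.67 (*RPS28A*), −1.71 and 0.22 (*RPL38*), −2.16 and 0.061 (*RPS7*), −1.47 and 0.20 (*RPS25*), −2.44 and 0.20 (*RPL8B*), −2.61 and 0.04 (*RPS6B*), −1.65 and 0.26 (*RPL8A*), −1.43 and 0.047 (*RPS29*), −2.49 and 0.033 (*RPS26*), −1.26 and 0.17 (*RPL14*), −0.96 and 0.066 (*RPL10*), −0.89 and 1.23 (*RPL6B*), −3.19 and 0.22 (Pipas_chr3_0731), −0.63 and 5.48 (Pipas_chr1-4_0481) and −0.31 and 4.66 (Pipas_chr4_0268). In RNC-mRNA at 48 h they were −0.29 and 0.75 (*RPL6B*) and −0.67 and 1.84 (Pipas_chr4_0268), and in mRNA at 48 h −0.69 and 0.46 (*RPL6B*) and −0.99 and 0.11 (*RPS27B*).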

Other observations

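The weights that voom gave to the *rpl9a*∆ libraries, relative to the other libraries of the assay, were 0.0715 and 0.0653 in mRNA at 48 h against 0.961 and 1.03 at 24 h. In RNC-mRNA they were 0.0886 and 0.103 at 72 h. The median log2 fold change of all genes of a contig in *rpl9a*∆ mRNA at 72 h lay between −0.13 (chr1-4, 684 genes) and 0.36 (chr1-3, 295 genes).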
